A study of Mus musculus with 40 samples.

Results

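The genes described here are 40 cell cycle and replication genes, followed in thioglycollate-elicited peritoneal macrophages of C57BL6/J and BALBc/J mice with and without an inflammatory stimulus. They were taken by symbol from the authors' expression table, and 40 of 40 were found among its 22865 genes. By role, 11 act in origin licensing and replication, 12 are cyclins or cyclin-dependent kinases (CDKs), 4 are CDK inhibitors, 5 belong to the E2F and retinoblastoma families, 6 act in mitosis or mark proliferation, and 2 are polo-like kinases that respond to stress. The cells were taken by lavage 4 days after thioglycollate injection and kept overnight in culture, and the treated ones then received 100 ng/ml of Kdo2-lipid A (KLA), a defined lipopolysaccharide fragment that activates Toll-like receptor 4. Poly(A) RNA-Seq was done at 1 hr and 4 hr of KLA and without treatment in each strain, which gives 6 libraries. GRO-Seq, which reads RNA still held by the polymerase, was done at 1 hr of KLA and without treatment, which gives 4. ChIP-Seq lists covered p65 (the NF-kB subunit RelA) after KLA, and PU.1, C/EBPa, H3K27Ac and H3K4me2 after 1 hr of KLA and without treatment. No genetic change is named for either inbred strain. Each condition had a single library per strain and assay (p65 had 2), and separate animals are not stated in the labels, so a p-value here reflects the spread among single libraries, which may be technical.

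A cell enters the division cycle when D-type cyclins with Cdk4 or Cdk6 phosphorylate the retinoblastoma proteins, which releases E2F factors to switch on the genes of DNA replication. Cyclin E with Cdk2 then drives S phase, cyclin A and B with Cdk1 drive mitosis, and CDK inhibitors hold these kinases back. Elicited macrophages are known as cells that divide little, and lipopolysaccharide is known to arrest macrophages that are cycling in response to a growth factor.

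RNA-Seq libraries held 17.0 to 20.3 M tags and GRO-Seq libraries 39.4 to 48.3 M, of which 3.07 to 4.34 M lay in exons and carry the GRO-Seq values. The exon share of GRO-Seq tags was 7.39% after KLA in C57BL6/J, against 9.83% without treatment. In BALBc/J it was 9.01% against 8.98%. The 10 macrophage markers all reached the filter described below and summed to 81782 to 106993 tags per 10 M in RNA-Seq. In RNA-Seq at 4 hr the summed T and NK cell markers stood at 189 to 243 tags per 10 M, against 8.83 to 21.3 without treatment. Lck alone of the 10 passed the filter in RNA-Seq, while Cd3d, Cd3e and Cd3g had no tag in either 4 hr library. The neutrophil sum stood at 152 to 342 against 78.5 to 134, nearly all of it S100a8, with Ngp at 0 in all RNA-Seq libraries. Mast cell markers stood at 374 to 443 against 68.9 to 92.6, nearly all of it Hdc at 4 hr, while Cpa3 stood at 4.03 to 5.43 against 23.0 to 27.6, and mesothelial and fibroblast markers at 1745 to 3820 against 2654 to 4199. In GRO-Seq, Lck and Cd3d of the T and NK cell markers passed the filter. Cd3d had 18.3 and 53.2 tags per 10 M there after KLA in C57BL6/J and BALBc/J, against 32.3 and 54.2 without treatment. The part of these markers in the results was not tested. In bulk RNA, fewer cells of a type and less RNA per cell cannot be told apart.

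Levels are given as tags per 10 M tags of the library, in RNA-Seq in the order of no treatment, 1 hr and 4 hr of KLA, and in pairs in the order of C57BL6/J and BALBc/J. Genes with 20 tags per 10 M or more in 2 or more libraries of an assay were tested. A call needed an adjusted p below 0.05 together with a log2 change no smaller than 1 in size (limma with additive terms for treatment and strain, p adjusted over all genes tested). This kept 35 of the 40 genes in RNA-Seq. Mcm7, Ccnb1, Cdkn2d, Plk1 and Tyms were below it. In GRO-Seq 19 of 40 were kept, and the other 21 reached the filter level in at most 1 library, with Mcm4 the highest of them at 23.2 tags per 10 M. Errors beside log2 changes are standard errors of this fit.

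KLA was followed by calls in both directions, with Mki67, Cdkn1a and Ccnd2 among the genes that rose and Rb1, Mcm2 and E2f1 among those that fell. At 1 hr of KLA 3 of the 35 genes rose in RNA (Mki67, Plk2 and Cdkn1a), or 8.57%, where 1.82% of all genes tested rose. None of the 35 was called lower at 1 hr, where 1.43% of all genes were, and 7 of 35 had an unadjusted p under 0.05 in either direction, as had 2466 of all 10692 genes. That share of all genes rests on single libraries, since the 153 genes behind it became 576 without the C57BL6/J library at 1 hr, 68 without the untreated C57BL6/J library and 96 without the untreated BALBc/J library. At 4 hr 5 rose (Ccnd2, Cdkn1a, Mki67, Cdk6 and Rbl1), or 14.3% beside 8.1% of all genes, and 8 fell (Rb1, Mcm2, E2f1, Cdkn2c, Cdk2, Cdkn1b, E2f2 and Cdk4), or 22.9% beside 21.3% of all genes. The share that fell at 4 hr was thus close to that of all genes. In GRO-Seq at 1 hr 3 of 19 rose (Mki67, Ccnd2 and Cdkn1a), or 15.8% beside 4.31%, and 5 fell (Rb1, Mcm2, Rbl1, E2f1 and Rrm1), or 26.3% beside 15.5%. Of these 8, Mcm2, Rbl1, E2f1 and Rrm1 passed the filter through their untreated libraries alone and Ccnd2 through its treated ones alone, so these shares are a description of the genes that passed. With a filter of 50 tags per 10 M, 9 genes were tested and Rb1 was the single one to fall, and with no filter 3 rose and 5 fell of 39, beside 426 and 1551 of 17638 genes.

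The median change over the genes tested was -0.16 at 1 hr in RNA (all genes -0.21), -0.45 at 4 hr (all genes -0.47) and -0.51 in GRO-Seq (all genes -0.34). The median of all genes thus lay below 0 when libraries were scaled to their totals. With each library centred on its median gene, 6 rose and 4 fell at 4 hr and 3 rose and 2 fell in GRO-Seq, while over all genes the calls became 1248 higher and 1041 lower at 4 hr in place of 866 and 2275, and 618 higher and 645 lower in GRO-Seq in place of 393 and 1410.

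**Figure D1:**
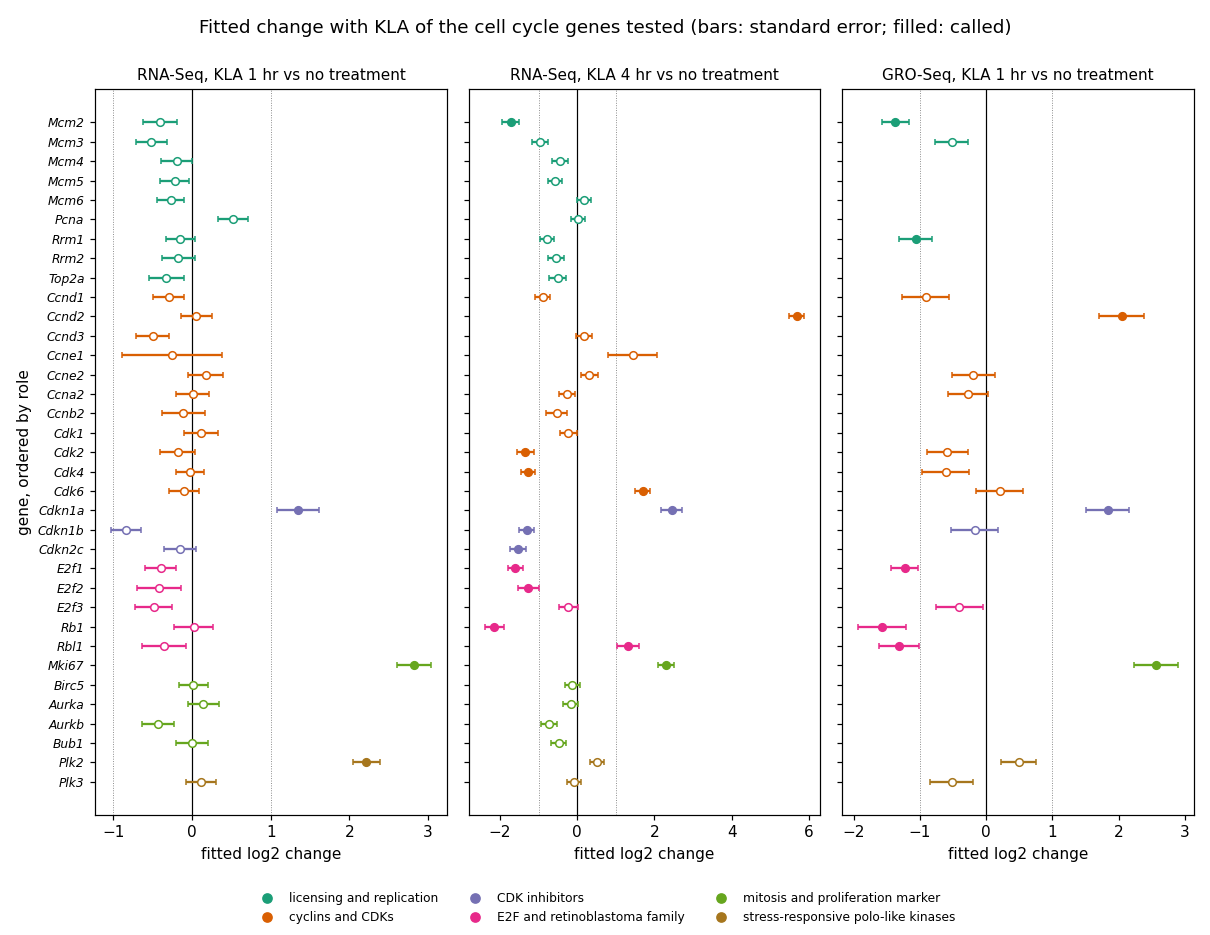
Fitted log2 change with KLA (x axis) of the genes tested, ordered by role (y axis), in RNA-Seq at 1 hr and 4 hr and in GRO-Seq at 1 hr; points are fitted values, bars standard errors, filled points passed both criteria, and dotted lines mark a change of 1. Most points lie within the dotted lines, with Mki67, Cdkn1a and Ccnd2 (5.68 at 4 hr) far to the right and Rb1 (-2.15 at 4 hr) farthest to the left.

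Expressed per kb of exon, which allows levels to be compared between genes, the untreated RNA of these genes ranged over several orders of magnitude. Averaged over both untreated libraries, Plk2 stood at 2171 tags per 10 M per kb, Cdkn1a at 927 and Cdk4 at 560, followed by Cdkn1b at 221, Rb1 at 187 and Cdk2 at 123. Mcm3, Rrm1 and Mcm6 stood close to each other at 111, 110.1 and 104. At the low end were Mki67 at 5.57, E2f2 at 5.47, Ccnd2 at 4.76, Plk1 at 3.82, Tyms at 3.34 and Ccnb1 at 0.494, and Cdkn2d had no tag without treatment. Cdkn2d had 2 tags in a single RNA library and none in the others, and Ccnb1 at most 3 tags, so no change could be seen for them. Cdkn2d has 2 genomic copies, and whether its tags were lost for that reason was not tested.

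Among the replication genes, Mcm2 fell and no other gene of the group was called in RNA. Mcm2 to Mcm7 encode the subunits of the replicative helicase, which is loaded at origins. Mcm2 (chr6:88833467-88848774 on mm9, minus strand) had, without treatment and at 1 hr and 4 hr of KLA, 164, 116 and 32.6 tags per 10 M in C57BL6/J and 183, 140.4 and 62.1 in BALBc/J. The 4 hr libraries were the lowest in both strains, and the fitted change was -1.72 ± 0.22, adjusted p = 0.000413 (limma). In GRO-Seq it had 1.92 and 5.93 tags per 10 M after KLA, against 25.4 and 25.9 without treatment, the lower pair resting on 8 and 24 tags, and the fitted change was -1.37 ± 0.21, adjusted p = 1.54e-09 (limma). Mcm2 passed the GRO-Seq filter through its untreated libraries alone, so their separation from the treated ones followed from the filter.

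Of the other helicase genes, Mcm3 changed by -0.96 ± 0.20 at 4 hr, Mcm5 by -0.58 ± 0.18, Mcm4 by -0.45 ± 0.20 and Mcm6 by 0.18 ± 0.18, none of them called. Mcm7, whose transcript holds the miRNAs Mir25, Mir93 and Mir106b, had 2.47 to 20.0 tags per 10 M. Pcna, the sliding clamp of the polymerase, changed by 0.52 ± 0.19 at 1 hr and 0.02 ± 0.19 at 4 hr. Rrm1, the large subunit of ribonucleotide reductase, fell in GRO-Seq to 3.36 and 15.6 tags per 10 M after KLA, against 27.4 and 29.8 without treatment (-1.06 ± 0.25, adjusted p = 0.000149, limma). With libraries centred on the median gene, or with a pseudocount of 50, Rrm1 was not called there. Its poly(A) RNA had 389, 391 and 239 tags per 10 M in C57BL6/J and 492, 395 and 262 in BALBc/J without treatment and at 1 hr and 4 hr, a fitted change of -0.78 ± 0.18 at 4 hr that stayed under the size threshold. Rrm2, the small subunit, changed by -0.56 ± 0.21 and Top2a, the topoisomerase that untangles replicated DNA, by -0.51 ± 0.23. Tyms, which makes thymidylate, had 10.6 to 15.3 tags per 10 M.

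RefSeq promoters, from 250 bases before to 50 after a start on GRCm38.p6, were found for 33 of the 40 genes, with 39 starts. The E2F motif, searched on both strands as TTTGGCGC, TTTCCCGC, TTTGCCGC or TTTCGCGC, was present in 9 of the 39 promoters (23.1%), where 2.26% of all 32851 promoters hold it. The 9 genes were Mcm3, Mcm5, Mcm6, Mcm7, Cdk1, Cdk2, E2f2, E2f3 and Rbl1. The promoter of Mcm6 (chr1:128359656-128359955, minus strand) is printed because it holds 3 matches, in capitals, of which a pair overlaps on opposite strands.
Mcm6: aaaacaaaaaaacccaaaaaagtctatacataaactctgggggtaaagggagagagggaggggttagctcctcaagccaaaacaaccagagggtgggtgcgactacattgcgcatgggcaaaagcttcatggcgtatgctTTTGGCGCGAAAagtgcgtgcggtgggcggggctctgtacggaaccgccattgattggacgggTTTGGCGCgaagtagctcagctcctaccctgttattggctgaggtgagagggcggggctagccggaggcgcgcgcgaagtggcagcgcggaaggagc
Mcm6 RNA did not pass the test with KLA, so the motif was present at genes that fell (Cdk2 and E2f2), rose (Rbl1) or were not called. A match describes the letters only.

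Of the D-type cyclins Ccnd2 rose strongly by 4 hr, and Ccnd1 and Ccnd3 were not called. Ccnd2 (chr6:127075726-127101066 on mm9, minus strand) had 25.3, 26.6 and 2004 tags per 10 M in C57BL6/J and 29.6, 31.3 and 1829 in BALBc/J without treatment and at 1 hr and 4 hr of KLA. The 1 hr libraries lay close to the untreated ones, and those at 4 hr stood far above all others (5.68 ± 0.19, adjusted p = 1.05e-06, a fitted 51.4-fold, limma). Nascent RNA had moved by 1 hr, with 68.5 and 87.8 tags per 10 M after KLA, against 11.2 and 11.2 without treatment (2.05 ± 0.34, adjusted p = 3.37e-08, limma). Ccnd2 passed the GRO-Seq filter through its treated libraries alone, so the lack of overlap there followed from the filter. 9330179D12Rik overlaps Ccnd2 and Bysl overlaps Ccnd3, and the sources do not say whether counting used the strand, so shared tags cannot be told apart. Ccnd1 changed by -0.90 ± 0.20 in RNA at 4 hr and by -0.91 ± 0.35 in GRO-Seq, and Ccnd3 by 0.17 ± 0.21 in RNA.

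The partner kinases of the D-type cyclins moved in opposite directions. Cdk6 (chr5:3344311-3522225, plus strand) had 59.5, 54.8 and 199 tags per 10 M in C57BL6/J and 50.5, 46.4 and 201 in BALBc/J without treatment and at 1 hr and 4 hr, so that only the 4 hr libraries stood apart (1.70 ± 0.19, adjusted p = 0.000223, limma). In GRO-Seq at 1 hr it changed by 0.20 ± 0.36, which was not called. Cdk4 (chr10:126500658-126504338, plus strand) had 604, 599 and 276 tags per 10 M in C57BL6/J and 904, 876 and 328 in BALBc/J. Its 4 hr libraries were the lowest in both strains (-1.27 ± 0.18, adjusted p = 0.000795, limma). Cdk2, the partner of cyclins E and A, had 289, 278 and 89.8 tags per 10 M in C57BL6/J and 311, 249 and 139 in BALBc/J and fell at 4 hr as well (-1.34 ± 0.22, adjusted p = 0.00156, limma). With libraries centred on the median gene, the changes of Cdk4 and Cdk2 were -0.84 and -0.92 and no longer reached the size threshold.

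The RNA of Ccne1, which encodes cyclin E1, stood high in a single library. Ccne1 had 26.5, 31.4 and 303 tags per 10 M in C57BL6/J and 51.5, 28.1 and 42.6 in BALBc/J without treatment and at 1 hr and 4 hr of KLA. The C57BL6/J library at 4 hr stood above the other 5, which ran between 26.5 and 51.5. The response at 4 hr was 3.10 in C57BL6/J and -0.23 in BALBc/J on the log2 scale, and the difference of 3.33 was the 5th by size among the 10692 genes tested. It rests on 1 library per strain and time and has no test. Fitted over both strains, the change was 1.44 ± 0.64 and was not called (limma, adjusted p = 0.0874), and it passed with libraries centred on the median gene (1.87, adjusted p = 0.0317) and without each of 4 single libraries (1.44 to 2.88). Without the C57BL6/J library at 4 hr the fitted change was -0.01. Ccne2 changed by 0.31 ± 0.22, and Ints8 overlaps it as Exosc9 overlaps Ccna2. Of the mitotic cyclins and their kinase, Ccna2 changed by -0.26 ± 0.21, Ccnb2 by -0.53 ± 0.27 and Cdk1 by -0.23 ± 0.21 at 4 hr, none of them called.

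The 3 CDK inhibitors tested split as well, with Cdkn1a higher and Cdkn1b and Cdkn2c lower. Cdkn1a (chr17:29230716-29237667, plus strand), which binds and blocks cyclin-CDK complexes and is a textbook target of p53, had 1555, 4359 and 12843 tags per 10 M in C57BL6/J and 1985, 4623 and 7194 in BALBc/J without treatment and at 1 hr and 4 hr of KLA. Levels were higher at each later time in each strain, with no overlap between times. The fitted change was 1.35 ± 0.27, adjusted p = 0.0329 at 1 hr and 2.45 ± 0.27, adjusted p = 0.000207 at 4 hr (limma). The 1 hr call was lost with no filter (adjusted p = 0.107), with no strain term (adjusted p = 0.11) and without the untreated C57BL6/J library (log2 change 0.99). At 4 hr the response was 3.04 in C57BL6/J and 1.85 in BALBc/J, a difference with no test. In GRO-Seq Cdkn1a had 376 and 313 tags per 10 M after KLA, against 86.6 and 91.3 without treatment (1.84 ± 0.32, adjusted p = 2.75e-07, limma), again with no overlap.

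RefSeq lists a pair of starts for Cdkn1a. The upstream one is printed because it alone, of the 39 promoters found for 33 of the 40 genes, held a p53 half-site. The half-site was searched as GACATGT on both strands and is held by 2.01% of all promoters. The downstream start (chr17:29093519-29093818, plus strand) held no match. The counted transcript starts at 29230716 on mm9. Moved by the shift between builds at Ccnd3 (47730415 on mm9, promoter from 47593217 on GRCm38.p6), it falls on the downstream start. If that shift holds along the chromosome, the printed promoter is not that of the counted transcript. The upstream promoter lies at chr17:29090729-29091028, plus strand. Its 2 matches, in capitals, lie on opposite strands with 2 bases between them.
Cdkn1a: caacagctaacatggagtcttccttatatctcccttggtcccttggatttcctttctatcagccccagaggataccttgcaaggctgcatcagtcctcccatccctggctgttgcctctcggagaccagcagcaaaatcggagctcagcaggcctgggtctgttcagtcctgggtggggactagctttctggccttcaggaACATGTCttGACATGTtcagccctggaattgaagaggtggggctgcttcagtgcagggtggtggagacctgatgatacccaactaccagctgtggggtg

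Cdkn1b, an inhibitor of the same family that is abundant in resting cells, had 644, 363 and 228 tags per 10 M in C57BL6/J and 417, 223 and 181 in BALBc/J without treatment and at 1 hr and 4 hr. Within each strain the level was lower at each later time, and both 4 hr libraries lay below both untreated ones, while 1 hr and 4 hr values overlapped across strains (-1.31 ± 0.19, adjusted p = 0.000789 at 4 hr, limma). Cdkn2c, which binds Cdk4 and Cdk6, had 78.9, 84.1 and 23.7 tags per 10 M in C57BL6/J and 102, 75.1 and 24.7 in BALBc/J, and both 4 hr libraries lay below the rest (-1.54 ± 0.20, adjusted p = 0.000537, limma). Cdkn1b gave -0.88 with libraries centred on the median gene, and Cdkn2c gave -0.92 with a pseudocount of 50, both under the size threshold. In GRO-Seq Cdkn1b changed by -0.17 ± 0.35, and Cdkn2c was not tested there.

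**Figure D2:**
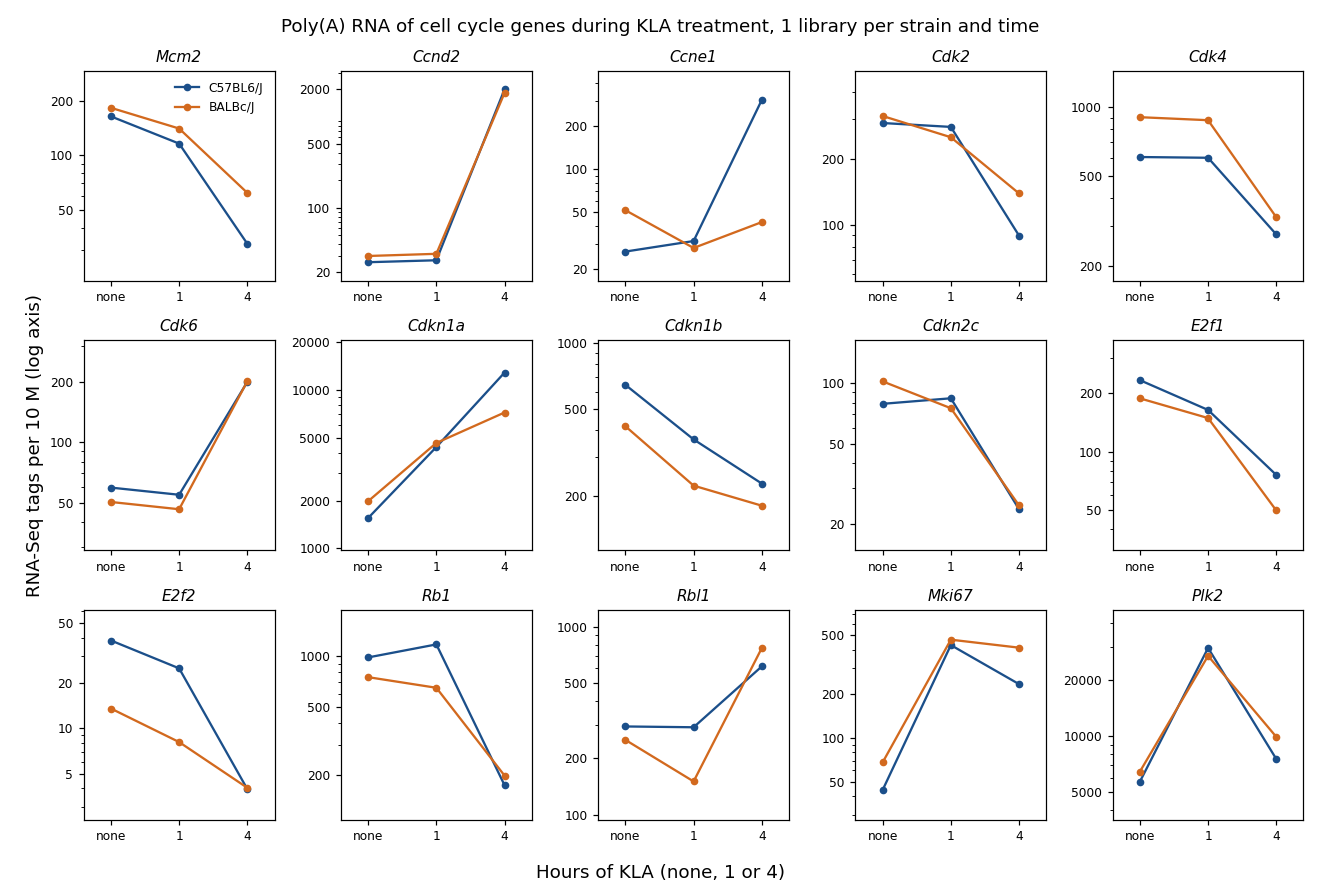
RNA-Seq tags per 10 M (log y axis, its range set per gene) without treatment and at 1 hr and 4 hr of KLA (x axis) for the 14 genes called in RNA-Seq against no treatment or between times, and for Ccne1; each point is 1 library and lines join a strain. Ccnd2, Cdk6 and Rbl1 stand highest at 4 hr, Plk2 and Mki67 at 1 hr, and Ccne1 reaches 303 at 4 hr in C57BL6/J and 42.6 in BALBc/J.

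In the E2F and retinoblastoma families, E2f1, E2f2 and Rb1 fell and Rbl1 rose. E2f1 to E2f3 encode activating E2F factors. E2f1 (chr2:154385374-154395588, minus strand) had 232, 163 and 76.0 tags per 10 M in C57BL6/J and 187, 148 and 50.0 in BALBc/J without treatment and at 1 hr and 4 hr of KLA, and the 4 hr libraries were the lowest (-1.60 ± 0.19, adjusted p = 0.000342, limma). Its nascent RNA was lower by 1 hr, with 2.64 and 6.43 tags per 10 M after KLA, against 26.7 and 21.1 without treatment (-1.23 ± 0.21, adjusted p = 6.8e-08, limma), where the treated libraries held 11 and 26 tags. The GRO-Seq call of E2f1 was lost with libraries centred on the median gene and with a pseudocount of 50. E2f2 was low, with 38.3, 25.0 and 3.95 tags per 10 M in C57BL6/J and 13.5, 8.10 and 4.03 in BALBc/J (-1.27 ± 0.28, adjusted p = 0.006, limma). E2f2 passed the filter only through the C57BL6/J libraries without treatment and at 1 hr, so it was not tested without either of them or under the filter of 50 tags per 10 M. Its call was lost with a pseudocount of 50, with centring, with no strain term, and without the C57BL6/J library at 4 hr. E2f3 changed by -0.23 ± 0.23 and was not called.

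Rb1 and Rbl1, which encode the retinoblastoma protein and its relative p107, both restrain E2F factors, and they moved in opposite directions at 4 hr. Rb1 (chr14:73595308-73725598, minus strand) had 980.0, 1169 and 173 tags per 10 M in C57BL6/J and 749.5, 649 and 197 in BALBc/J, and both 4 hr libraries lay below the rest (-2.15 ± 0.25, adjusted p = 0.00026, limma). GRO-Seq gave 34.4 and 23.0 tags per 10 M after KLA, against 115 and 93.6 without treatment (-1.57 ± 0.36, adjusted p = 0.000126, limma). At 1 hr Rb1 poly(A) RNA had changed by 0.02 ± 0.25, while its nascent RNA was already lower. The genes Lpar6 and Mir687 lie within Rb1, and their tags cannot be fully told apart from its own.

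Rbl1 (chr2:156971629-157030270, minus strand) had 294, 292 and 614 tags per 10 M in C57BL6/J and 249.7, 150.1 and 769 in BALBc/J, the 4 hr libraries being the highest in both strains (1.31 ± 0.28, adjusted p = 0.00524, limma). Without the BALBc/J library at 4 hr the change was 0.87 and was not called. Nascent Rbl1 at 1 hr went the other way, with 8.65 and 15.6 tags per 10 M after KLA, against 49.5 and 39.3 without treatment (-1.31 ± 0.30, adjusted p = 0.000114, limma). Rbl1 passed the GRO-Seq filter through its untreated libraries alone, so the lack of overlap there followed from the filter. The GRO-Seq call of Rbl1 was lost with libraries centred on the median gene and with a pseudocount of 50. The Rbl1 promoter (chr2:157204485-157204784, minus strand) is printed for its single E2F match, in capitals, which begins 18 bases before the start.
Rbl1: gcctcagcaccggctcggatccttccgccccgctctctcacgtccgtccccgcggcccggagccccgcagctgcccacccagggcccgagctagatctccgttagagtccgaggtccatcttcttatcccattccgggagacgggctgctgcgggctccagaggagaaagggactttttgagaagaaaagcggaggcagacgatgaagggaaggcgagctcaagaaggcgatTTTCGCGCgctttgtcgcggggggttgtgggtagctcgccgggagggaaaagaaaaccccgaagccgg

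**Figure D3:**
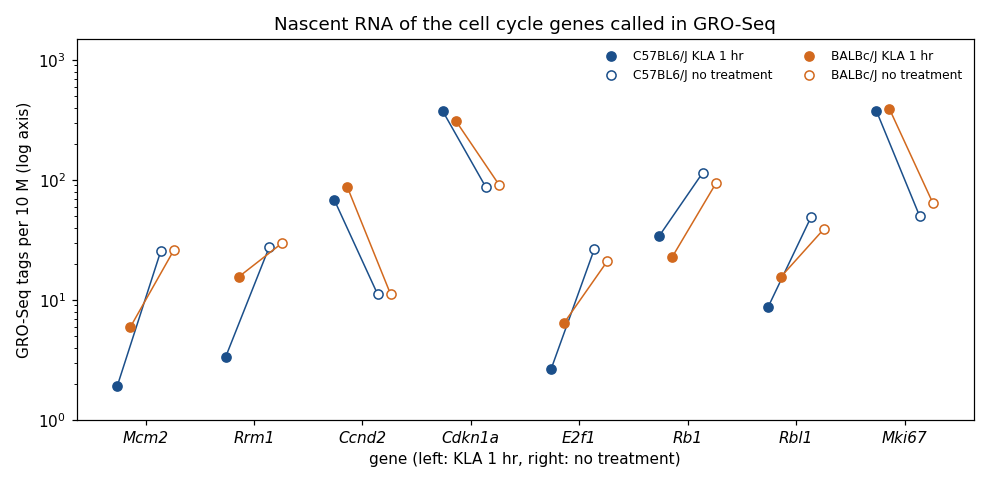
GRO-Seq tags per 10 M (log y axis) of the 8 genes called in GRO-Seq (x axis), with KLA at 1 hr on the left (filled) and no treatment on the right (open) for each strain; each point is 1 library and lines join a strain. Ccnd2, Cdkn1a and Mki67 are higher after KLA in both strains, and Mcm2, Rrm1, E2f1, Rb1 and Rbl1 are lower in both.

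Mki67 stood apart from the other genes of mitosis. Mki67 encodes the Ki-67 protein, a standard marker of cycling cells. Mki67 (chr7:142881470-142908062 on mm9, minus strand) had 44.2, 429.9 and 233 tags per 10 M in C57BL6/J and 68.1, 468 and 413 in BALBc/J without treatment and at 1 hr and 4 hr of KLA. All 4 treated libraries lay above both untreated ones. The fitted change was 2.82 ± 0.22, adjusted p = 0.000213 at 1 hr and 2.30 ± 0.22, adjusted p = 9.51e-05 at 4 hr (limma). Nascent Mki67 had 377 and 392 tags per 10 M after KLA, against 49.8 and 64.6 without treatment (2.56 ± 0.33, adjusted p = 4.57e-13, limma).

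The other mitotic genes were low and did not pass the test. Birc5 (survivin, of the chromosomal passenger complex) had 25.9, 26.1 and 22.2 tags per 10 M in C57BL6/J and 35.9, 36.7 and 32.8 in BALBc/J without treatment and at 1 hr and 4 hr. At 4 hr Birc5 changed by -0.13 ± 0.19, Aurka by -0.17 ± 0.19, Aurkb by -0.73 ± 0.20 and Bub1 by -0.48 ± 0.20, and at 1 hr Aurka changed by 0.14 ± 0.19 and Aurkb by -0.43 ± 0.20. Aurka and Aurkb are the mitotic Aurora kinases and Bub1 is a kinase of the spindle checkpoint. Plk1, the polo-like kinase of mitosis, had 3.72 to 12.1 tags per 10 M.

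Mki67 and Birc5 both had p65 peaks close to their starts in all 4 lists, and their promoters are printed together. Such peaks were not particular to them, and Pcna, Mcm2, Mcm4, Cdk4, Cdkn1a, Ccna2 and Plk3 were among others with one in all 4 lists. The peak nearest the Pcna start had 99.5 and 184.8 tags per 10 M in C57BL6/J and 111 and 136 in BALBc/J. Capitals in the Mki67 promoter (chr7:135716330-135716629, minus strand) mark the cell cycle homology region motif TTTGAA, searched on both strands and present in 17.9% of all promoters and in 9 of the 39 here (23.1%). In the Birc5 promoter (chr11:117848987-117849286, plus strand) they mark the NF-kB motif (GGG, any 2 bases, then TTTCC, on either strand), present in 1.63% of all promoters and in no other of the 39.
Mki67: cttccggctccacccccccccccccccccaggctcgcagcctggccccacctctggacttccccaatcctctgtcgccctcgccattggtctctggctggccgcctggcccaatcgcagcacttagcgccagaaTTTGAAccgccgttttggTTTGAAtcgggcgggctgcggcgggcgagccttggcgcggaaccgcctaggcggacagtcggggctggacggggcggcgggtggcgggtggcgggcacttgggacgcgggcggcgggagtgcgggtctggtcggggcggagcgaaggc
Birc5: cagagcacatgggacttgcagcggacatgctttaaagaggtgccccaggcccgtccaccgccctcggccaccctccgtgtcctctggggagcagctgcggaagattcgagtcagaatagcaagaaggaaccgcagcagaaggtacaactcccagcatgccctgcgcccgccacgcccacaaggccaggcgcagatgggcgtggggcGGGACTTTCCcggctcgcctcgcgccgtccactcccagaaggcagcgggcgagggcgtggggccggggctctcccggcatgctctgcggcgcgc
The nearest p65 peak to the Mki67 start of the mm9 table was centred 137 to 166 bp upstream, with 48.0 and 90.8 tags per 10 M in C57BL6/J and 43.0 and 70.1 in BALBc/J. At Birc5 it was centred 42 to 54 bp upstream, with 167 and 268 tags per 10 M in C57BL6/J and 177 and 184 in BALBc/J. The lists' median signals were 41.1 and 40.3 in C57BL6/J and 38.0 and 35.5 in BALBc/J, so the Birc5 peak stood above the median in each list, and the Mki67 peak did as well. For Mki67 and Birc5, starts of the mm9 table and of RefSeq on GRCm38.p6 were not aligned to each other.

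Plk2 rose at 1 hr and was not called at 4 hr. Plk2, a kinase induced by stress and by p53, had 5706, 29554 and 7544 tags per 10 M in C57BL6/J and 6454, 26815 and 9903 in BALBc/J without treatment and at 1 hr and 4 hr. The 1 hr libraries stood above all others (2.21 ± 0.17, adjusted p = 0.000239, limma), and at 4 hr the change from no treatment was 0.51 ± 0.17 and was not called. In GRO-Seq it changed by 0.50 ± 0.26, also not called. Plk3, a relative of Plk2, had 107, 105 and 98.2 tags per 10 M in C57BL6/J and 85.3, 103 and 81.7 in BALBc/J and did not pass the test in either assay, and Tctex1d4 overlaps it.

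Between 4 hr and 1 hr of KLA, 4 genes rose (Ccnd2, Cdk6, Rbl1 and Cdkn1a), or 11.4% beside 8.67% of all genes, and 7 fell (Rb1, Plk2, Cdkn2c, Mcm2, Cdk4, E2f1 and Cdk2), or 20% beside 13.5%. This comparison shares its 4 hr libraries with that against no treatment. Plk2 fell by 1.70 ± 0.17 on the log2 scale from its level at 1 hr, Rb1 changed by -2.18 ± 0.25, and Mki67 by -0.52 ± 0.22 without a call.

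No strain difference was called in these genes. Neither RNA-Seq nor GRO-Seq called a gene of the 40 higher or lower in C57BL6/J than in BALBc/J (0 of 35 and 0 of 19, limma), where over all genes 1.19% were higher and 2.52% lower in RNA and 0.417% higher and 0.494% lower in GRO-Seq. At an unadjusted p under 0.05 there were 11 of 35 in RNA, beside 2186 of 10692 genes, and 4 of 19 in GRO-Seq, beside 672 of 9110. In the strain comparisons the treatments of a strain serve as its replicates. The p-values therefore reflect the spread across treatments, and not across animals or cultures. Of these genes Mcm6 had the lowest adjusted p in RNA, with a difference of 0.78 ± 0.14, adjusted p = 0.0153 (limma). It had 385, 318 and 427 tags per 10 M in C57BL6/J and 217, 178 and 252 in BALBc/J at the 3 times. All 3 C57BL6/J libraries lay above all 3 of BALBc/J. The difference stayed under the size threshold. The other 10 had adjusted p between 0.0566 and 0.208 (limma). Among them were all 5 genes of mitosis that were tested, since Plk1 was below the filter. Their differences were -0.63 ± 0.16 for Bub1, -0.55 ± 0.16 for Aurkb, -0.48 ± 0.18 for Mki67, -0.41 ± 0.16 for Aurka and -0.38 ± 0.15 for Birc5. The rest were Top2a at -0.60 ± 0.18, Ccnb2 at -0.69 ± 0.22, Cdk4 at -0.45 ± 0.15, Cdkn1b at 0.54 ± 0.15 and E2f2 at 0.66 ± 0.23. Of 8 mesothelial and fibroblast markers, 4 were called lower in C57BL6/J (Col1a1, Dcn, Lum and Upk3b), with a list median of -0.97, and their part in these differences was not tested.

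ChIP-Seq peaks of each mark and factor were called at many of these starts. Counting a peak or region that overlaps 1000 bp on either side of the transcript start, H3K4me2, a mark of promoters and enhancers, was present at 35 of the 35 genes tested in RNA in all 4 lists, beside 94.6 to 94.8% of all genes tested. PU.1 peaks lay at 26 to 27 of 35 across the lists (74.3 to 77.1%, beside 75.2 to 77.2%), and C/EBPa peaks at 17 to 23 (48.6 to 65.7%, beside 53.6 to 59.4%). After KLA, p65 was called in at least 1 replicate list at 27 of 35 in C57BL6/J (77.1%, beside 71.1%) and at 25 in BALBc/J (71.4%, beside 60%). With a peak required in both replicate lists the shares were 65.7%, beside 57.1%, in C57BL6/J and 37.1%, beside 41.5%, in BALBc/J, so the order against all genes turned round in BALBc/J. H3K27Ac, a mark of active promoters and enhancers, was called at 24 to 26 of 35 (68.6 to 74.3%, beside 84.3 to 86.8%).

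H3K27Ac signal differed by 2-fold or more in both strains at a few starts after KLA, and at more starts in a single strain. The tag signal is the authors' own value per region, in tags per 10 M, and regions are stitched to variable length, so length and mean are given beside it. Of the 20 genes with a region in all 4 lists, 1 had at least 2-fold more signal after KLA in both strains (5%, beside 3.17% of all genes) and 4 had at least 2-fold less (20%, beside 10.7%). Within C57BL6/J, of 23 genes with a region in both lists, 2 had at least 2-fold more (8.7%, beside 7.6% of all genes). In that strain 10 had at least 2-fold less (43.5%, beside 22.4%). Within BALBc/J, of 24 genes, 4 had more (16.7%, beside 7.14%) and 5 had less (20.8%, beside 19.3%). Mcm7 had less in C57BL6/J (ratio 0.394) and more in BALBc/J (3.91). There is 1 list per strain and treatment, so these counts have no test.

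The gene with more was Mki67. In C57BL6/J its region held 279 tags per 10 M over 3.71 kb after KLA, against 37.6 over 0.644 kb without treatment. In BALBc/J it held 475 over 5.87 kb after KLA, against 31.9 over 0.952 kb. The regions were longer after KLA, and their mean signal per kb was 1.29-fold and 2.41-fold higher. The strongest p65 peak within 1000 bp of the Mki67 start had 160.1 and 303 tags per 10 M in C57BL6/J and 115 and 114 in BALBc/J, a different peak from the nearest one.

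The genes with less were Cdk4, Rb1, E2f1 and Birc5. Cdk4 held 85.0 and 87.1 tags per 10 M after KLA in C57BL6/J and BALBc/J, over 1.84 and 1.87 kb, against 449 and 593 without treatment, over 3.39 and 5.64 kb. Rb1 held 101 and 124 after KLA over 2.87 kb in each, against 446 and 309.6 over 4.20 and 3.52 kb. Cdk4 and Rb1 were also at least 2-fold lower in the mean per kb in both strains, and no gene was 2-fold higher by that measure. E2f1 held 29.3 and 7.70 after KLA over 0.906 and 0.631 kb, against 89.8 and 112 over 1.52 and 1.32 kb. Cdk4, Rb1 and E2f1 are among the genes whose RNA was lower at 4 hr. Cdk2, Cdkn1b, Cdkn2c and E2f2 fell in RNA as well, and their H3K27Ac signal was not 2-fold lower in both strains. Rbl1, whose RNA rose, had signal ratios of 0.64 in C57BL6/J and 0.594 in BALBc/J. Birc5 held 176 and 117 after KLA over 1.96 and 1.65 kb, against 372 and 405 over 2.62 and 2.68 kb, while its RNA did not pass the test.

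**Figure D4:**
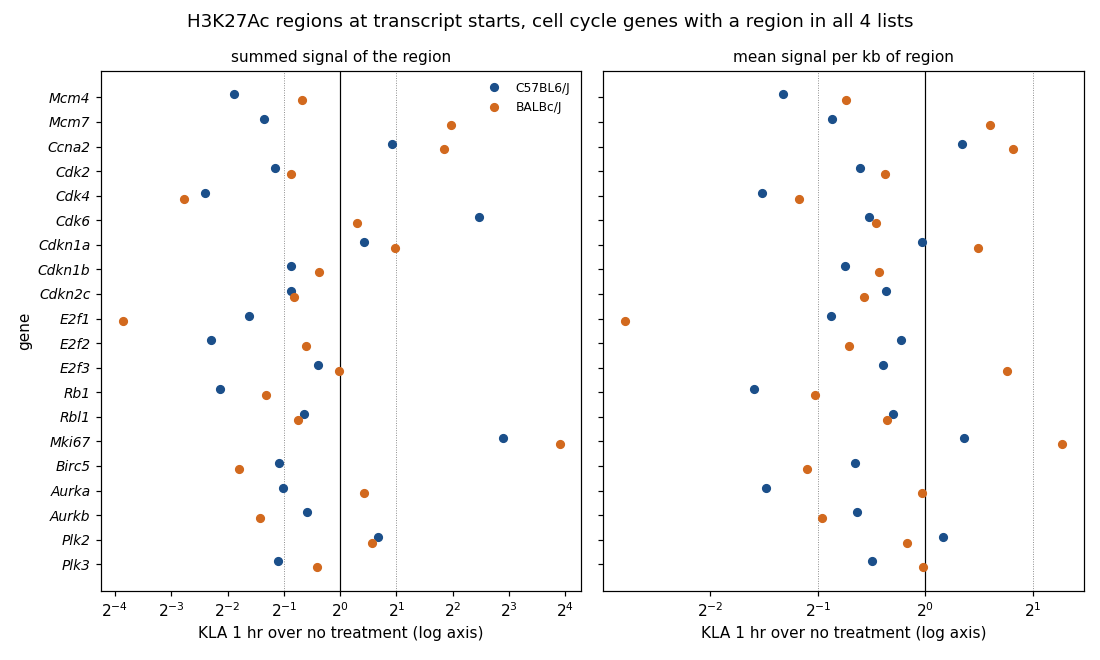
Ratio of H3K27Ac tag signal at the transcript start, KLA 1 hr over no treatment (log x axis), for the 20 genes with a region in all 4 lists (y axis), as the summed signal of the region (left) and the mean signal per kb (right); points are single lists of each strain and dotted lines mark 2-fold. Mki67 lies farthest to the right in the summed signal in both strains, and Cdk4 and Rb1 lie left of the dotted line in both panels and strains.

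Further genes of the same pathways, from lists written with earlier results of these data known, were tested in the same fit. Of 37 further licensing and replication fork genes tested, none rose and 10 fell at 4 hr in RNA, where 8.1% of all genes rose and 21.3% fell, with a median of -0.64 beside -0.47 over all genes. The largest falls were Gmnn, the inhibitor of licensing (geminin), at -2.42 ± 0.19, the clamp loader subunit Rfc2 at -1.37 ± 0.18, the helicase cofactor Cdc45 at -1.29 ± 0.19, the flap nuclease Fen1 at -1.21 ± 0.19, the single-strand binder Rpa1 at -1.17 ± 0.17 and the ligase Lig1 at -1.14 ± 0.19. At 1 hr none of the 37 was called. Of 27 further mitosis genes, none rose and 4 fell at 4 hr, a smaller share than that of all genes, namely the phosphatase Cdc25b at -2.50 ± 0.22, the centromeric histone Cenpa at -1.82 ± 0.18, Incenp at -1.79 ± 0.22 and Ccnf at -1.19 ± 0.28, with a median of -0.43. Of 16 further CDK inhibitors, retinoblastoma and E2F family genes and other cyclins, 2 rose and 5 fell at 4 hr, with a median of -0.54. E2f5, a repressive E2F, changed by 1.34 ± 0.19, and the retinoblastoma relative Rbl2 by -1.46 ± 0.21, the E2F partner Tfdp2 by -1.27 ± 0.20, Cdk9 by -1.19 ± 0.18 and E2f6 by -1.19 ± 0.23. E2f8, the atypical repressor, rose at 1 hr (1.27 ± 0.24), at 4 hr (1.11 ± 0.24) and in GRO-Seq (2.94 ± 0.36).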

How the data were processed

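The expression table was deposited by the authors as log2 of 1 plus exon tags per 10 M tags of each library, per the file headers, with no length correction. Reads were aligned with Bowtie 0.12.7 and handled with HOMER on mm9, per the submitters' processing notes. On the linear scale the values are whole tags plus a random part below 1 tag, and the whole tags were recovered. Strand use in counting is not stated in them. Of 29028 transcripts, 21 without a symbol were left out. Each of 22865 genes was represented by the transcript with the highest RNA-Seq mean. For 8 of the 40 genes the table holds several transcripts, and Cdkn2d has 2 genomic copies.

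The test was a linear model across genes (lmFit, then eBayes with a trend, in limma 3.58.1 under R 4.3.3) on log2(whole tags per 10 M + 10), with treatment and strain as additive terms, separately in RNA-Seq (10692 genes) and GRO-Seq (9110), and Benjamini-Hochberg adjustment over all genes. The strains serve as the 2 replicates of a treatment, and the treatments serve as the replicates of a strain. RNA-Seq left 2 residual degrees of freedom and GRO-Seq left 1, with an infinite prior. In GRO-Seq the spread of a gene was thus read from the trend of spread with level over all genes. The scatter of the gene itself plays no part in its GRO-Seq p-value. The pseudocount of 10 makes changes of low genes smaller. Responses of a single strain have no test.

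The authors called peaks and stitched regions per sample with HOMER, requiring 4-fold over an input, per the file headers, and deposited the tag signal per 10 M. For BALBc/J p65, that input came from C57BL6/J, per the same headers. Of 40 samples, 10 were not analysed here. The genes and lists were chosen with earlier results of these data known. All 40 genes are accounted for, those called in a comparison with values in each library. Of other lists, at most 6 called genes per comparison are named, by size of change. Other pseudocounts, filters, scaling, voom, transcripts, left-out libraries and promoter windows were tried.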

Additional observations from a re-analysis of the deposited data

Results flagged for a closer look

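For 3 genes the response to KLA had opposite signs in the strains, with a difference of at least 1 on the log2 scale. Each rests on 1 library per strain and treatment, and the difference was not tested. Ccne1 RNA at 4 hr of KLA changed by 3.10 in C57BL6/J and by -0.23 in BALBc/J, a difference of 3.33. Ccnb2 RNA at 4 hr changed by 0.01 in C57BL6/J and by -1.07 in BALBc/J, a difference of 1.08, where C57BL6/J was close to no change. It had 20.0, 24.5 and 20.2 tags per 10 M in C57BL6/J and 61.9, 43.7 and 24.2 in BALBc/J without treatment and at 1 hr and 4 hr of KLA. Plk3 in GRO-Seq changed by -1.06 in C57BL6/J and by 0.03 in BALBc/J, a difference of -1.08, where BALBc/J was close to no change. It had 17.8 and 29.9 tags per 10 M after KLA, against 47.8 and 29.2 without treatment, each pair in the order C57BL6/J and BALBc/J. The exon share of GRO-Seq tags was lower after KLA in C57BL6/J (7.39% against 9.83%) and similar in BALBc/J (9.01% against 8.98%). Values are scaled to all tags of a library, and the part of this in the Plk3 difference was not tested.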

How the results depend on the processing

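Of 35 calls of single genes over all comparisons, 18 held under each alternative tried, and no value turned its direction while called. Leaving out 1 RNA library gave 2 to 3 genes higher and 0 to 1 lower at 1 hr (1 lower, Ccne1, without untreated C57BL6/J), 5 to 6 higher and 7 to 10 lower at 4 hr, 3 to 5 higher and 6 to 8 lower between 4 hr and 1 hr, and 0 to 1 higher between strains (Ccne1, without the untreated library of either strain). Centring libraries on the median gene gave 4 lower at 4 hr, 2 lower in GRO-Seq (Mcm2 and Rb1) and 1 higher between strains in GRO-Seq (Cdk6). A pseudocount of 50 gave 3 lower between 4 hr and 1 hr and 0 lower in GRO-Seq, where it compresses the low GRO-Seq values, and the stricter filter gave 1 lower there, among 9 genes tested. Other counts of these genes stayed within 1.5 times. Counts over all genes moved further. Lower calls at 1 hr (153) were 39 with a pseudocount of 50, 66 with no filter, 78 when centred, 47 with no strain term, and 68 to 576 with 1 library left out. With a pseudocount of 50, lower calls were 1280 at 4 hr and 817 between times, in place of 2275 and 1446, strain calls in RNA were 59 higher and 111 lower in place of 127 and 269, and GRO-Seq gave 221 higher and 330 lower with KLA and 17 and 9 between strains in place of 38 and 45. Strain calls lower in RNA were 409 with a pseudocount of 2 and 421 with voom. Centring gave 962 lower between times and 87 higher and 28 lower between strains in GRO-Seq. Lower GRO-Seq calls were 908 with KLA under the stricter filter, and between strains 19 higher and 18 lower under it, 85 lower with no filter and 68 lower with voom.

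Keeping peaks at or above the median signal of their list left PU.1 at 17 genes with KLA and 16 with none in C57BL6/J and at 16 and 15 in BALBc/J. In the same order C/EBPa was at 10, 8, 9 and 9, H3K27Ac at 14, 16, 16 and 14, and p65 at 15 in C57BL6/J and 8 in BALBc/J, each of 35. Beside the shares of all genes tested, these were 42.9 to 48.6% against 49.1 to 53.5% for PU.1, 22.9 to 28.6% against 25.4 to 30.6% for C/EBPa, and 40.0 to 45.7% against 60.7 to 63.0% for H3K27Ac. For p65 they were 42.9% against 41.6% in C57BL6/J and 22.9% against 32.2% in BALBc/J, below all genes where any peak gave more than all genes. A p65 peak in both replicate lists left 13 in BALBc/J (37.1% against 41.5%). For H3K27Ac of at least 2-fold in both strains, alternatives chosen after seeing the data gave 2 higher of 20 with a 500 bp window (288 of 9150 over all genes). With the region centre inside the window 0 of 12 were higher and 2 lower (146 and 577 of 7468), for regions at or above the median 0 of 10 were higher and 3 lower (153 and 484 of 5429), and by mean signal per kb 0 of 20 were higher and 2 lower (44 and 306 of 9303).

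No paired analysis was possible because replicate numbers occur only in the p65 lists, which were described and not tested. The strain term compares treatments within strain, and without it the 1 hr call of Cdkn1a and the 4 hr call of E2f2 were lost among the calls against no treatment. In GRO-Seq, leaving out a library leaves no residual, and the 8 called genes had the same direction within each strain. For Mcm2, Rbl1, E2f1, Rrm1 and Ccnd2 this followed from the filter, which they passed through 1 treatment alone. The genes were also called on the mean of the same strain responses, so the direction is no separate check. Depth limits the low genes, and counts cover counting error only.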

Other observations

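Genes linked to p53 and growth arrest were listed beside Cdkn1a. Of 14 tested, 4 rose and 1 fell in RNA at 1 hr of KLA, where 1.82% of all genes rose and 1.43% fell. The antiproliferative genes Btg2 and Btg1 changed by 2.86 ± 0.18 and 1.72 ± 0.16, the stress gene Gadd45b by 1.64 ± 0.15, the p53 ligase Mdm2 by 1.17 ± 0.18, and Gadd45g by -1.44 ± 0.17. At 4 hr 1 rose, Gadd45b at 1.31 ± 0.15, named after its value was seen, and 8 fell, where 8.1% of all genes rose and 21.3% fell. The list had a median of -1.46 at 4 hr, beside -0.47 over all genes. The largest falls were the sestrin gene Sesn1 at -4.28 ± 0.23, Gadd45a at -3.34 ± 0.24, Trp53inp1 at -2.32 ± 0.30, Gadd45g at -1.88 ± 0.17, the BH3 gene Bbc3 at -1.74 ± 0.21 and Zmat3 at -1.61 ± 0.24, while Cdkn1a stood at 2.45 ± 0.27. In GRO-Seq at 1 hr 2 of the 14 rose and 4 fell, where 4.31% of all genes rose and 15.5% fell, with Gadd45g at -2.15 ± 0.36, Sesn1 at -1.99 ± 0.36, Trp53inp1 at -1.90 ± 0.33, Btg1 at 1.51 ± 0.27, Zmat3 at -1.49 ± 0.34 and Gadd45b at 1.27 ± 0.30.

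Of the 8 further mitosis genes tested in GRO-Seq, the checkpoint kinase gene Bub1b was called higher in C57BL6/J than in BALBc/J (1.46 ± 0.23, adjusted p = 2.23e-07, limma). It was the single such call in the list, where 0.417% of all genes were higher. In RNA none of the 27 genes of the list that were tested was called between strains, with a median of -0.28.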
